A study of Homo sapiens with 4 samples.

Results

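The ER translocon genes are a set of 10 mRNAs, SEC61A1, SEC61B, SEC61G, SEC62, SEC63, SSR1, SSR2, SSR3, SSR4 and TRAM1, picked by symbol from the 26830 gene symbols measured; all 10 were listed, and all 10 reached the mean of 1 TPM needed for testing. The data are an RNA immunoprecipitation with sequencing (RIP-seq) of ALKBH5, a demethylase of N6-methyladenosine (m6A) in RNA, in NOMO-1, an established human acute myeloid leukaemia line. Every library came from cells that overexpressed ALKBH5 with a 3xFlag tag from a lentivirus, kept by puromycin and GFP sorting and crosslinked by UV. The Flag-IP group is RNA recovered with an anti-Flag antibody, with the libraries Flag-IP 1 and Flag-IP 3. The input group is RNA of the same kind of cells with no antibody, with the libraries input 1 and input 3. A control pull-down from untagged cells is not analysed here, and what the antibody recovers unspecifically was therefore not measured.

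Proteins bound for secretion or for membranes enter the endoplasmic reticulum (ER) through the SEC61 channel. The signal recognition particle and its receptor bring the ribosome to the channel; SEC62 and SEC63 serve proteins that are slow to engage it, TRAM1 contacts the emerging signal sequence, and the translocon-associated protein (TRAP) complex of SSR1, SSR2, SSR3 and SSR4 helps weaker signals and sits beside the enzyme that adds sugars. In myeloid cells this route carries the granule proteases and surface receptors. Markers of monocytic and myeloid cells were checked first: 7 of 13 such markers averaged at least 1 TPM, and their summed TPM was 122.22 and 117.24 in Flag-IP 1 and 3, against 65.96 and 79.09 in input 1 and 3. The granule protease CTSG led them, CD14 was listed at 0 in every library, and MPO was at most 0.13 TPM. Of 3 markers each of T, B, erythroid, epithelial and fibroblast cells none averaged 1 TPM.

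All levels are TPM, a transcript abundance per length that sums to 1000000 in each library. TPM keeps no depth, so read numbers are unknown and the counting error could not be estimated. Structural RNAs were grouped by symbol (2442 rows): ribosomal, 7SL, 7SK, small nuclear, nucleolar and Cajal body, RNase P, MRP, Y, vault and snaR RNAs. MicroRNA and MTRNR2L rows were counted with them. Together these rows took 92.5% and 93.6% of TPM in Flag-IP 1 and 3, against 96.8% and 96.3% in input 1 and 3. The median tested gene was 2.38 times higher in mean TPM in Flag-IP, and 0.84 higher as a log2 difference of TPM + 1. Each difference is therefore given both as deposited and on a median-ratio scale, in which every library is divided by its median ratio over tested genes, so that 0 is close to the median gene; a difference on that scale is one against the median gene. Separate cultures are stated for neither group, and a p-value thus reflects only how far these libraries spread, which may be technical. In bulk RNA, a level per cell and a share of cells cannot be told apart.

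The m6A mark sits in a short consensus whose commonest form is GGACT, with the methyl group on the A, and it is often found near stop codons. No methylation was measured here. GGACT was searched on the transcript strand of 1 GENCODE 29 transcript per gene (GRCh38). It occurred 28 times in the 10 transcripts, 21 times in 3′ UTRs and 7 times in coding sequence, and in 9 of the 10. SEC61B, with a transcript of 545 bases, held none, as did 9.70% of 6111 tested protein-coding genes. Per kilobase the members had between 0 (SEC61B) and 2.17 sites (SEC61G), where the median protein-coding gene had 0.958, and 4 members lay above that median. To show where the enzyme's possible substrate lies in the genes that the results turn on, the site nearest the stop codon within 1 exon is given for 5 members, with 10 bases on either side, 5′ to 3′ on the transcript strand and the consensus in capitals. The A of the site lies 409 bases past the stop codon in SSR2, 90 in SEC61A1, 17 in SEC62 and 56 in SSR4, all in the 3′ UTR, while in SEC61G it is in the coding sequence.
SSR2, chr1:156009119-156009143, minus strand: gaaagctatgGGACTcttggaggat
SEC61A1, chr3:128069740-128069764, plus strand: tgcggcatatGGACTtttaataatg
SEC62, chr3:169993068-169993092, plus strand: actaattttgGGACTgaatgaataa
SSR4, chrX:153798477-153798501, plus strand: acaggacctgGGACTgcacaggacc
SEC61G, chr7:54757527-54757551, minus strand: agtttgtaaaGGACTccattcggct

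As deposited, 9 of the 10 translocon mRNAs rose in Flag-IP and none fell. Of the 9, SEC63 and SSR1 averaged less than 1 TPM in input and entered the test only through Flag-IP. The rises of SEC63 and SSR1 are thus not independent of the filter. The members' TPM ratio of Flag-IP to input ran between 1.41 (SEC62) and 3.02 (SEC61B) with a median of 1.81, below the 2.38 of the median tested gene for 8 members and above it for SEC61B and SEC61G. Against the median gene SSR2, SEC61A1 and SEC62 fell, none rose, and 7 did not pass. These counts are by limma at an adjusted p below 0.05 over 6487 tested genes, of which 86.6% were called higher and 0.74% lower as deposited, and 22.3% higher and 18.6% lower on the median-ratio scale. At an unadjusted p below 0.05 the count of members lower as deposited was 0, and on the median-ratio scale 0 were higher and 6 lower. The share of all tested genes at this unadjusted threshold is not given, so these counts cannot be set against the 22.3% and 18.6%. The groups were separate with Flag-IP on top for 9 members as deposited, as for 93.1% of tested genes (below for 0 members and 1.09%). On the median-ratio scale both lay below for 7 members and above for 1, against 37.1% and 37% of tested genes. With no filter on low genes, SSR4 alone kept its rise as deposited and no member passed on the median-ratio scale. The median log2 difference of the members was 0.63 as deposited and -0.29 on the median-ratio scale, where all tested genes had 0.84 and -0.01. An exact permutation test over these libraries cannot give a two-sided p below 0.333, so single genes rest on limma's shared spread; as deposited, gene variances did not depart from the fitted trend with level, which can make those p-values too small.

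**Figure D1:**
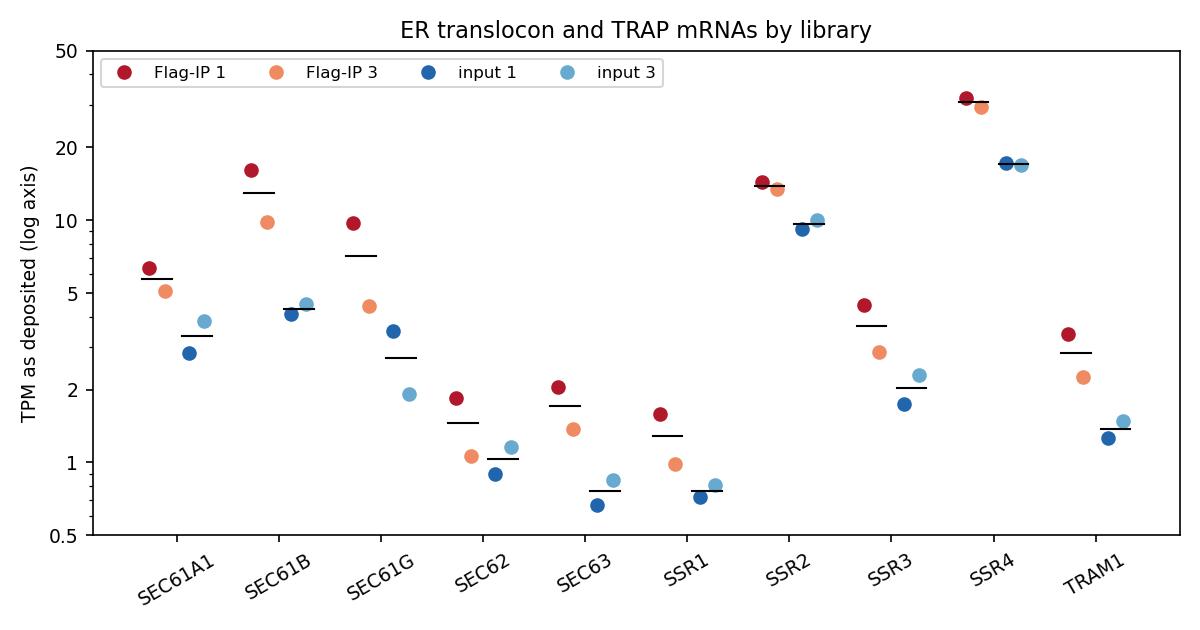
TPM of the 10 genes in each library on a log axis, with points for single libraries and black lines for group means. Flag-IP libraries lie above both inputs for every gene other than SEC62, whose Flag-IP 3 value of 1.06 is below the 1.16 of input 3; SSR4 is highest in all 4 libraries.

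SEC61A1, the subunit that forms the channel pore (chromosome 3, 128051641 to 128071683, plus strand, GRCh38), had 6.33 and 5.09 TPM in Flag-IP 1 and 3, against 2.83 and 3.82 TPM in input 1 and 3. Its groups did not overlap, yet its ratio of 1.72 was under that of 77.7% of tested genes. As deposited it rose by 0.64 ± 0.21 (log2 ± SE, limma adjusted p = 0.00386), and against the median gene it fell by 0.39 ± 0.11 (adjusted p = 0.0347). With 3 libraries the difference was -0.30 without input 3 (adjusted p = 0.156), -0.37 without Flag-IP 1 (0.12) and -0.37 without Flag-IP 3 (0.118), so the call was lost while the size changed little on leaving out either Flag-IP library. It was -0.19 (adjusted p = 0.217) with structural RNAs omitted from scaling, which divides each library by the summed TPM of its other genes. In that setting 0 is not the median gene. Its rise did not pass when input 1 (adjusted p = 0.183) or Flag-IP 1 (0.063) was left out. RUVBL1 on the opposite strand shares 344 exon bases with it.

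SEC61B, the small tail-anchored subunit of the channel (chromosome 9, 99222064 to 99230615, plus strand), had 16.12 and 9.78 TPM in Flag-IP 1 and 3, against 4.08 and 4.49 TPM in input 1 and 3. The inputs were close together and both Flag-IP libraries at least doubled them, with Flag-IP 1 well above Flag-IP 3. Its mean was 12.95 ± 4.48 TPM in Flag-IP and 4.29 ± 0.290 TPM in input (SD, n = 2 each). SEC61B rose by 1.36 ± 0.21 as deposited (limma adjusted p = 1.19e-09), the largest difference among the 10 members. Against the median gene it stood at 0.26 ± 0.15 and did not pass (adjusted p = 0.205). Its ratio of 3.02 was exceeded by 31.6% of tested genes. SEC61B passed with the trend of the difference with transcript length removed (0.56, adjusted p = 0.0288). It also passed with structural RNAs omitted from scaling (0.47, adjusted p = 0.0188), where 0 is not the median gene.

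SEC61G, the single-span subunit that clamps the channel (chromosome 7, 54752250 to 54759974, minus strand), had 9.77 and 4.43 TPM in Flag-IP 1 and 3, against 3.49 and 1.92 TPM in input 1 and 3. Both libraries numbered 1 were high and both numbered 3 low, so that the lower Flag-IP value lay near the higher input. Flag-IP 1 exceeded Flag-IP 3 by 2.21 times, a ratio that 0.509% of tested genes surpassed, and input 1 exceeded input 3 by 1.82 times, surpassed by 1.03%. SEC61G rose by 1.08 ± 0.21 as deposited (limma adjusted p = 1.24e-06), though not without Flag-IP 1 (0.59, adjusted p = 0.0607). Against the median gene it was 0.06 ± 0.33 (adjusted p = 0.901) and turned to -0.38 without input 3 and -0.27 without Flag-IP 1.

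Among the partners of the channel SEC62, a membrane protein that also acts as a receptor for ER turnover (chromosome 3, 169966635 to 169998373, plus strand), had 1.85 and 1.06 TPM in Flag-IP 1 and 3, against 0.90 and 1.16 TPM in input 1 and 3. It was the only member whose groups overlapped as deposited. Its deposited difference of 0.26 ± 0.19 did not pass (limma adjusted p = 0.183; 0.016 without Flag-IP 3). Against the median gene SEC62 fell by 0.44 ± 0.12 (adjusted p = 0.0312), with 1.074 and 0.760 scaled TPM in Flag-IP 1 and 3, against 1.504 and 1.668 in input 1 and 3. This fall did not pass without input 1 (-0.52, adjusted p = 0.0534), input 3 (-0.41, 0.102) or Flag-IP 3 (-0.30, 0.145), nor with structural RNAs omitted from scaling (-0.30, adjusted p = 0.0802).

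SEC63, which brings the chaperone BiP to the channel through its J domain (chromosome 6, 107867756 to 107958189, minus strand), had 2.05 and 1.37 TPM in Flag-IP 1 and 3, against 0.67 and 0.85 TPM in input 1 and 3. It rose by 0.61 ± 0.19 as deposited (limma adjusted p = 0.00153; 0.0861 without input 1). With an input mean of 0.76 TPM it reached the 1 TPM filter only through Flag-IP. Its ratio of 2.25 was close to that of the median gene, and against the median gene it was -0.06 ± 0.10 (adjusted p = 0.68). When structural RNAs were omitted from scaling, where 0 is not the median gene, it was 0.07. With the length trend removed it was -0.38 and passed (adjusted p = 0.0265).

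The TRAP subunits spanned the widest range of levels. SSR4, the delta subunit, whose loss in humans causes a congenital disorder of glycosylation (chromosome X, 153793516 to 153798505, plus strand), had 31.79 and 29.39 TPM in Flag-IP 1 and 3, against 17.18 and 16.83 TPM in input 1 and 3. Both pairs were tight, with means of 30.6 ± 1.70 TPM in Flag-IP and 17.0 ± 0.248 TPM in input (SD, n = 2 each). SSR4 rose by 0.81 ± 0.21 as deposited (limma adjusted p = 0.000266), and was the only member to pass there in all 9 alternatives tried. Against the median gene it was -0.40 ± 0.13, just short of the threshold (adjusted p = 0.0522), and with quantile scaling it was -0.02 (adjusted p = 0.881). IDH3G on the opposite strand shares 278 exon bases with SSR4 and had 7.95 and 7.29 TPM in Flag-IP 1 and 3, against 2.93 and 4.25 TPM in input 1 and 3. Antisense genes not among the measured symbols share exon bases with SSR2 (214), SEC63 (304), SSR1 (151) and SEC62 (100). SSR1 also shares 69 with CAGE1 on its own strand, which had at most 0.01 TPM. Whether reads were counted by strand is not given in the sources used here.

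SSR2, the beta subunit (chromosome 1, 156009048 to 156020959, minus strand), had 14.32 and 13.47 TPM in Flag-IP 1 and 3, against 9.17 and 10.04 TPM in input 1 and 3. The Flag-IP libraries were above the inputs, but by less than for most genes: the ratio of means was 1.45, and 88.2% of tested genes had a larger one. On the median-ratio scale the order was the opposite, with 8.32 and 9.66 scaled TPM in Flag-IP 1 and 3, against 15.3 and 14.4 in input 1 and 3. SSR2 fell by 0.67 ± 0.11 against the median gene (limma adjusted p = 0.00668), the largest fall among the members. The call held with each of the 4 libraries left out, with adjusted p at most 0.0314, and with quantile scaling (-0.47, adjusted p = 0.0203). It did not pass without a filter on low genes (-0.71, adjusted p = 0.112) or with the length trend removed (-0.36, adjusted p = 0.0568). As deposited it rose by 0.49 ± 0.22 (adjusted p = 0.0268), a call lost without input 1 (0.201), input 3 (0.0965) or Flag-IP 1 (0.0911).

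SSR3, the gamma subunit (chromosome 3, 156540140 to 156555184, minus strand), had 4.46 and 2.86 TPM in Flag-IP 1 and 3, against 1.74 and 2.30 TPM in input 1 and 3. SSR1, the alpha subunit (chromosome 6, 7268306 to 7347446, minus strand), had 1.59 and 0.99 TPM in Flag-IP 1 and 3, against 0.72 and 0.81 TPM in input 1 and 3. Neither gene's groups overlapped. SSR1, with an input mean of 0.765 TPM, reached the 1 TPM filter only through Flag-IP. As deposited SSR3 rose by 0.61 ± 0.21 (limma adjusted p = 0.00514) and SSR1 by 0.36 ± 0.18, at the threshold (adjusted p = 0.0494). SSR3 did not pass when input 1 (0.187) or Flag-IP 1 (0.143) was left out, and SSR1 lost it in 7 of 8 alternatives. Against the median gene SSR3 was -0.31 ± 0.13 (adjusted p = 0.0949) and SSR1 -0.27 ± 0.11 (adjusted p = 0.0886). Both passed as lower with the length trend removed (adjusted p = 0.0385 and 0.00344). SSR1 and SEC63 have 2 annotated pseudogenes each and SSR4 has 1, so their reads may be shared.

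TRAM1, the membrane protein that crosslinks to signal sequences as they enter (chromosome 8, 70573442 to 70608387, minus strand), had 3.38 and 2.26 TPM in Flag-IP 1 and 3, against 1.26 and 1.48 TPM in input 1 and 3. It rose by 0.67 ± 0.21 as deposited (limma adjusted p = 0.0016; 0.089 without input 1). With a ratio of 2.06 it did not pass against the median gene (-0.16 ± 0.11, adjusted p = 0.277), and it was at 0.00 with structural RNAs omitted from scaling.

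**Figure D2:**
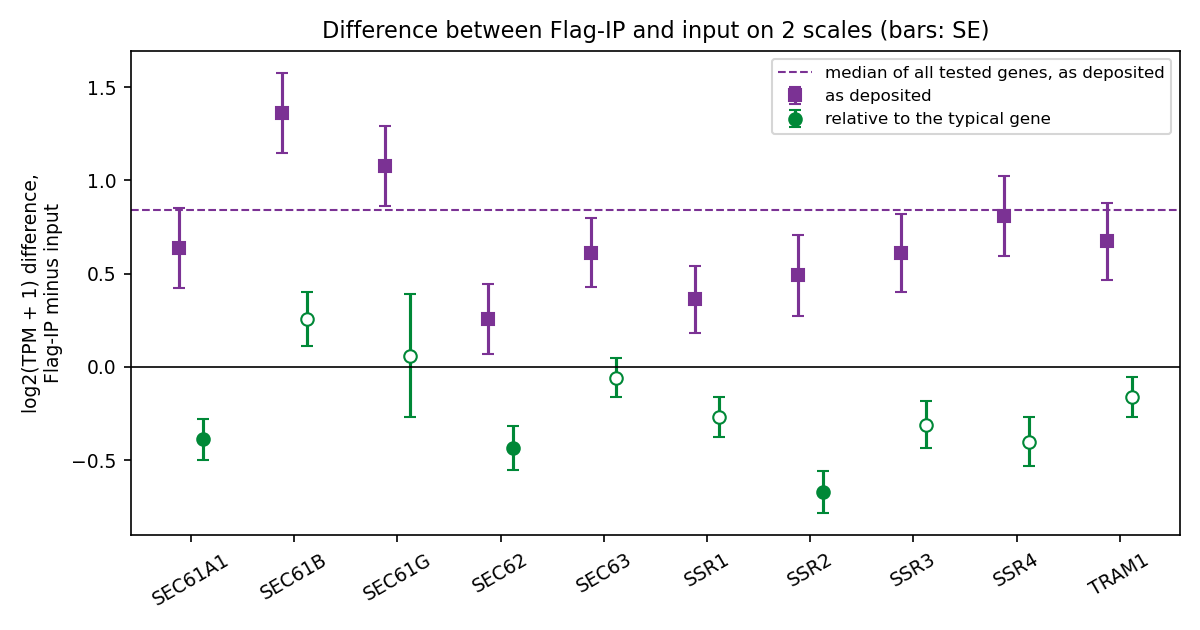
Log2 difference of TPM + 1, Flag-IP minus input, for each gene with its SE, as deposited (squares) and on the median-ratio scale (circles, called the typical gene in the key, filled where limma's adjusted p is below 0.05). The dashed line is the median of all tested genes as deposited, 0.84; SEC61B and SEC61G lie above it, and SSR2, SEC61A1 and SEC62 carry the filled circles.

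Within a library the ratio of 2 mRNAs does not depend on scaling between libraries. SEC61B stood at 2.55 and 1.92 times SEC61A1 in Flag-IP 1 and 3, against 1.44 and 1.18 times in input 1 and 3. SEC61B over SSR2 was 1.13 and 0.726 in Flag-IP, against 0.445 and 0.447 in input. For both ratios the groups did not overlap, with Flag-IP on top. The other ratios of the core overlapped: SEC61B over SEC61G was 1.65 and 2.21 in Flag-IP 1 and 3, against 1.17 and 2.34 in input 1 and 3, and SEC61G over SEC61A1 was 1.54 and 0.870 in Flag-IP, against 1.23 and 0.503 in input. Within TRAP, SSR4 over SSR2 was 2.22 and 2.18 in Flag-IP, against 1.87 and 1.68 in input, again without overlap. SSR4 over SSR1 (19.99 and 29.69 in Flag-IP, 23.9 and 20.8 in input) and SSR4 over SSR3 (7.13 and 10.3 in Flag-IP, 9.87 and 7.32 in input) overlapped. None of these ratios was tested, and no share of separate groups over other gene pairs is given. For single genes on the median-ratio scale, Flag-IP lay above both inputs for 37% and below both for 37.1% of tested genes. SEC61B and SSR2 had the highest and the lowest median-ratio difference of the members in these same libraries. The separation of their ratio is therefore no further support.

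The 10 genes summed to 91.66 and 70.7 TPM in Flag-IP 1 and 3, against 42.04 and 43.7 TPM in input 1 and 3. The SEC61 core made up 35.2% and 27.3% of this sum in Flag-IP, against 24.7% and 23.4% in input. TRAP made up 56.9% and 66.1% in Flag-IP, against 68.5% and 68.6% in input. The core's summed share was thus raised more in Flag-IP 1 than in Flag-IP 3. Among its subunits only SEC61B had shares that did not overlap between the groups. SEC61A1 took 6.91% and 7.20% of the sum in Flag-IP 1 and 3, against 6.73% and 8.74% in input 1 and 3. SEC61G took 10.7% and 6.27% in Flag-IP 1 and 3, against 8.30% and 4.39% in input 1 and 3. SSR2 alone fell to 15.6% and 19.1% of the sum in Flag-IP, against 21.8% and 23.0% in input, and SEC61B took 17.6% and 13.8% in Flag-IP, against 9.71% and 10.3% in input. In every library SSR4 ranked first, SSR2 and SEC61B held the next ranks, and SEC62, SEC63 and SSR1 the last. The order of SEC62 and SEC63 changed, with SEC63 ahead in both Flag-IP libraries and SEC62 ahead in both inputs. The gaps were smaller than the spread between the Flag-IP libraries. Flag-IP 1 was above Flag-IP 3 for both genes, however, so that spread does not bear on their order within a library. Neither the shares nor the ranks were tested.

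**Figure D3:**
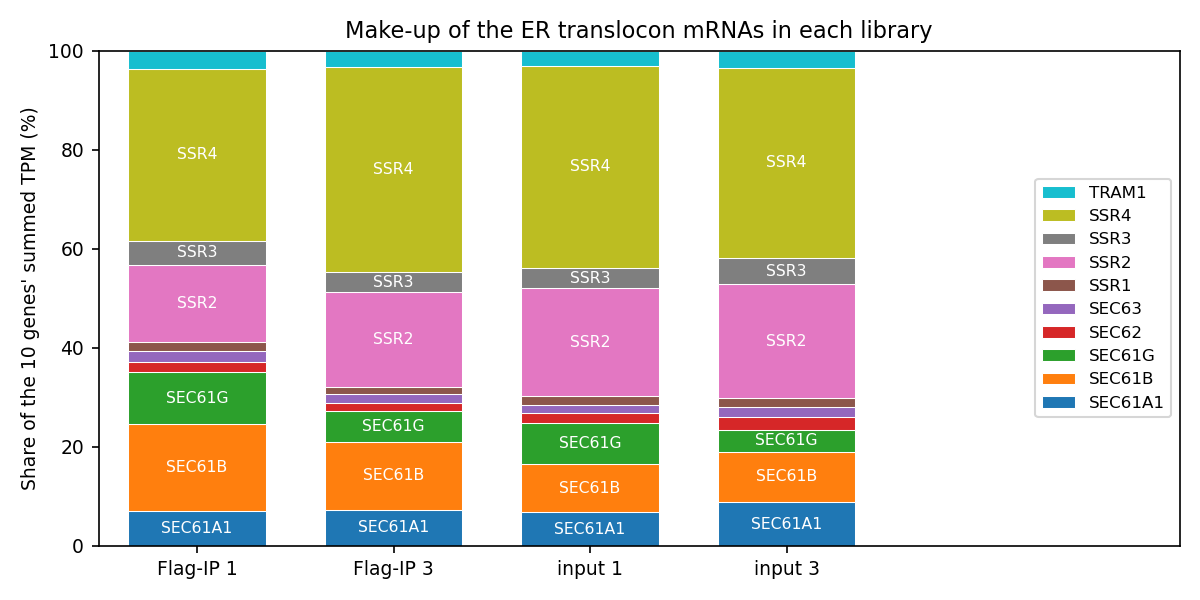
Share of the 10 genes' summed TPM held by each gene, in percent, 1 bar per library. SEC61B takes 17.6% and 13.8% in the Flag-IP libraries against 9.71% and 10.3% in the inputs, and SSR2 takes less in both Flag-IP libraries than in the inputs.

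The Flag-IP libraries also differed from each other. Flag-IP 1 exceeded Flag-IP 3 in 10 of 10 members, by 1.53 times at the median, and in 84.45% of tested genes, by 1.22 times at the median. SSR2 and SSR4 were nearly level (1.06 and 1.08 times). In the inputs 8 of 10 members were lower in input 1, SEC61G and SSR4 being the exceptions. Over all tested genes the median ratio of input 1 to input 3 was 0.858. The part of this library difference in the members' results was not tested beyond leaving out each library.

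Longer transcripts had higher median-ratio differences among tested protein-coding genes (Spearman's rho 0.47 over 6111 genes, a description, since genes share libraries). Over the 10 members, lengths and differences ran the other way (rho -0.30, n = 10). The short SEC61G (462 bases) and SEC61B (545) had the highest differences. The long SSR1 (9669 bases), SEC62 (6568), SEC63 (6411), SSR3 (3716) and SEC61A1 (3635) lay below 0, SEC63 only slightly (-0.06). In all 8 of the 10 members lay below 0, so that lying below 0 does not mark the long ones. The short SSR4 (643 bases) and SSR2 (1116) did not follow SEC61B and SEC61G. With the length trend removed, 1 member rose (SEC61B) and 5 fell (SEC61A1, SEC62, SEC63, SSR1 and SSR3), where the median-ratio scale alone gave 0 and 3. Over all genes that setting called 1084 higher and 1216 lower, against 1444 and 1207 on the median-ratio scale alone.

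**Figure D4:**
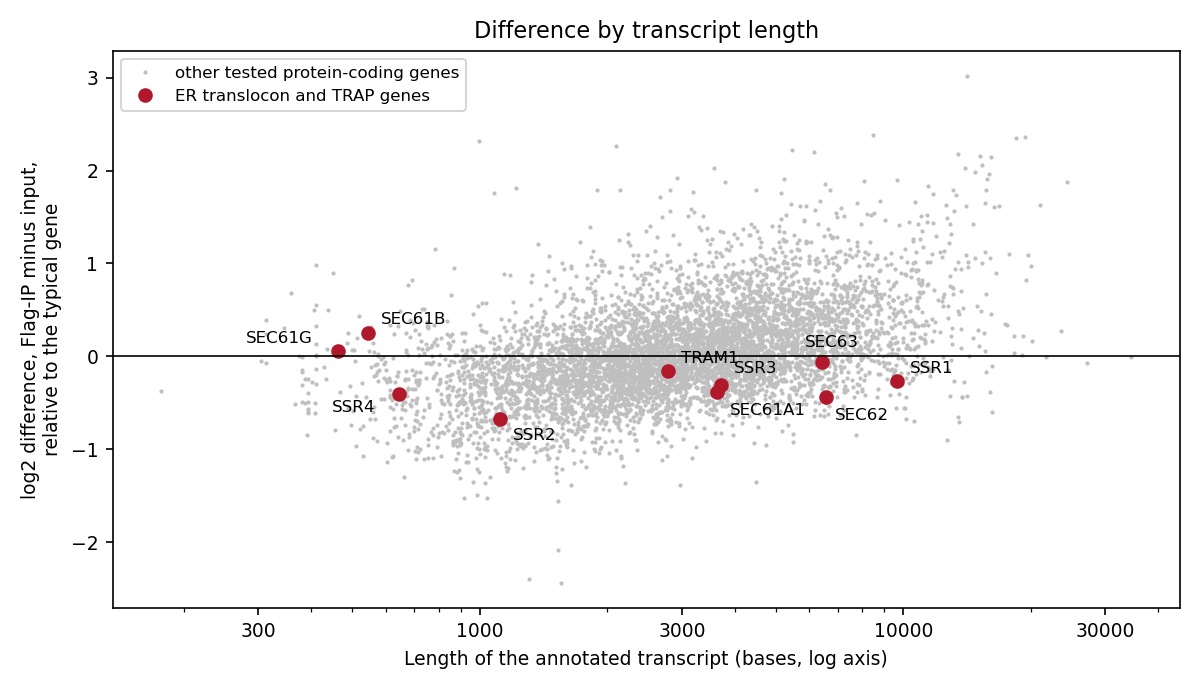
Log2 difference against the median gene against the length of the annotated transcript (log axis), with the 10 translocon genes in red and other tested protein-coding genes in grey. The grey genes slope upward (rho 0.47). SEC61B and SEC61G lie above 0 at the short end, and the other 8 members, short and long, lie below 0.

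Other genes of ER entry were taken from lists of the pathway. Their counts are to be read beside those of all tested genes by limma at an adjusted p below 0.05. As deposited 86.6% of all tested genes were higher and 0.74% lower, and on the median-ratio scale 22.3% were higher and 18.6% lower. For the unadjusted counts no share of all tested genes is given. No gene of these lists was called lower as deposited by limma, nor at an unadjusted p below 0.05. Of 8 genes of the signal recognition particle and its receptor 7 were tested; all 7 rose as deposited, and against the median gene 1 rose, 2 fell and 4 did not pass, with a median of -0.21. SRP14, a protein of the particle's domain that slows translation, had 17.72 and 12.98 TPM in Flag-IP 1 and 3, against 9.38 and 12.47 TPM in input 1 and 3, and fell by 0.72 ± 0.12 on the median-ratio scale (adjusted p = 0.00591). Of 5 further subunits and paralogs of the channel only SERP1 (RAMP4, a small SEC61 partner) was tested. SERP1 had 3.39 and 2.26 TPM in Flag-IP 1 and 3, against 1.97 and 2.92 TPM in input 1 and 3, with overlapping groups, and fell by 0.76 ± 0.14 on the median-ratio scale (adjusted p = 0.00793).

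The next genes encode the enzymes that act on the entering chain. Of 12 oligosaccharyltransferase genes 10 were tested; all 10 rose as deposited, and on the median-ratio scale limma called 0 higher and 0 lower (0 and 1 at an unadjusted p below 0.05), with a median of 0.02. OST4, the smallest subunit, had 19.46 and 16.31 TPM in Flag-IP 1 and 3, against 7.62 and 6.69 TPM in input 1 and 3 (0.05 ± 0.14, adjusted p = 0.805). RPN1, ribophorin I, had 16.09 and 13.79 TPM in Flag-IP 1 and 3, against 7.05 and 8.38 TPM in input 1 and 3 (-0.28 ± 0.10, adjusted p = 0.0654). Of 5 signal peptidase genes 3 were tested, and all 3 rose as deposited; against the median gene 0 were called in either direction by limma, also at an unadjusted p below 0.05, with a median of -0.21. SEC11A, a catalytic subunit, was at -0.21 ± 0.12, and SPCS1 at -0.27 ± 0.17.

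Membrane insertion routes beside the SEC61 channel were mixed. Of 8 multipass translocon genes 5 were tested, with 4 higher as deposited and, against the median gene, 0 higher and 1 lower (1 and 1 at an unadjusted p below 0.05). The gene that fell was TMEM147, a partner of nicalin, with 2.71 and 2.85 TPM in Flag-IP 1 and 3, against 2.66 and 2.42 TPM in input 1 and 3 (-0.82 ± 0.14, adjusted p = 0.00757). NOMO1, a gene that shares its name with the cell line and has near-identical copies, so that its level is uncertain, had 13.80 and 10.76 TPM in Flag-IP 1 and 3, against 4.11 and 4.54 TPM in input 1 and 3 (0.20 ± 0.10, adjusted p = 0.148). Of 10 genes of the ER membrane protein complex 6 were tested, and all 6 rose as deposited; EMC1, its largest subunit, rose also against the median gene (0.39 ± 0.10, adjusted p = 0.0217; 0.574 with the length trend removed, and 0.0572 to 0.083 with 1 library left out), none fell (2 higher and 0 lower at an unadjusted p below 0.05), and EMC4 stood at -0.11 ± 0.18. EMC1 had 2.68 and 2.04 TPM in Flag-IP 1 and 3, against 0.53 and 0.65 TPM in input 1 and 3. It thus reached the 1 TPM filter only through Flag-IP, and its rise is not independent of that filter. Of 7 genes of tail-anchor insertion 5 were tested, 3 higher as deposited and 3 lower against the median gene, with 0 higher (0 at an unadjusted p below 0.05). ASNA1, the ATPase that carries tail-anchored proteins, fell by 0.72 ± 0.10 (adjusted p = 0.00385), and SGTA, which hands them on, was at -0.03 ± 0.11.

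Of 15 ER lumenal chaperones 13 were tested. All 13 rose as deposited, as did 86.6% of all tested genes. Against the median gene 4 fell and 0 rose (5 and 0 at an unadjusted p below 0.05), with a median of -0.13, where 18.6% of all tested genes fell and 22.3% rose. P4HB, a protein disulphide isomerase, had 66.04 and 54.04 TPM in Flag-IP 1 and 3, against 38.40 and 44.94 TPM in input 1 and 3, and fell by 0.73 ± 0.10 on the median-ratio scale (limma adjusted p = 0.00346; -0.17 and 0.333 with quantile scaling). Its ratio of 1.44 was close to the 1.45 of SSR2 and the 1.41 of SRP14.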

How the data were processed

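RNA of 2 Flag-IP and 2 input libraries was compared. The submitters' processing notes name STAR, RSEM and GRCh38; their versions, the annotation and the strand setting are not stated there. The authors deposited TPM values for 26830 symbols, rounded to 2 decimals. Depth is unknown, so no counting error is given.

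Genes averaging 1 TPM or more entered the test on log2(TPM + 1) with limma 3.58.1 in R 4.3.3 (lmFit, eBayes with a mean-variance trend), two-sided, with Benjamini-Hochberg adjustment over all 6487 genes tested. A log2(TPM + 1) difference understates the change of low genes. A gene whose input mean was below 1 TPM could reach the filter only through Flag-IP, which favours rises among such genes. The fit was repeated after median-ratio scaling over genes above 0 in all libraries. Prior degrees of freedom were infinite as deposited and 4.02 after scaling, with 2 residual. The test was checked on simulated data. These had independent noise at the spread that limma had fitted, so the check covers the calculation and not the assumptions about these libraries. Gene models were from GENCODE 29; of the symbols 23794 matched by name and 554 through a synonym. The transcript used was a principal one with the best support level, then the longest.

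Members and gene lists were chosen with earlier results of these data known. All members are named and, per other list, the gene with the highest mean and the one with the largest median-ratio difference. Alternatives were no filter, a 5 TPM filter, 0.1 as pseudocount, no trend, a replicate block and each library left out. Beside the median-ratio fit there were also quantile scaling, scaling without structural RNAs and removal of the length trend (loess, span 0.5, with a length at hand for 98.6% of tested genes). Scaling without structural RNAs left those RNAs out of the fit. It replaced the median ratio by each library's summed TPM of the other genes, so 0 is not the median gene there. A crossed replicate block was chosen after seeing the data. Of the lists, NOMO2, NOMO3 and BAG6 were not analysed here.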

Additional observations from a re-analysis of the deposited data

How the results depend on the processing

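Of the 10 members, 9 rose as deposited; the count was 1 with no filter (2342 genes higher and 17 lower in all, against 5616 and 48), 3 of 3 tested with a filter at a mean of 5 TPM (1272 and 25), and 3 to 10 with 1 library left out (3 without input 1 and 4 without Flag-IP 1, where 3939 and 4966 of all genes were higher; all genes 3939 to 5628 higher and 28 to 57 lower, with 28 without Flag-IP 1). On the median-ratio scale 3 fell and 0 rose; 0 fell with no filter (77 genes higher and 20 lower in all, against 1444 and 1207), 1 of 3 tested with a filter at a mean of 5 TPM (392 and 355), 1 with 1 higher when structural RNAs were omitted from scaling (2236 and 725), 5 with 1 higher when the length trend was removed (1084 and 1216), and 1 to 2 with 1 library left out (1 without input 3 or Flag-IP 3; all genes 961 to 1136 higher and 587 to 837 lower, lowest without Flag-IP 1). A fit on 3 libraries assumes that the lone library varies like the others. SSR2 kept its direction in all 12 alternatives and passed in 10; SEC61A1 and SEC62 passed in 5 of 11 each.

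The replicate numbers 1 and 3 do not come with a stated shared culture or day. Deviations of same-numbered libraries correlated at -0.168 (deposited) and -0.187 (median-ratio). These correlations cannot decide whether same-numbered libraries were paired, so the pairing is unknown, and the main fit did not use the number. With the replicate block 5 members rose as deposited (4789 of all genes) and 1 fell on the median-ratio scale (1055 of all genes). With the numbers crossed these were 9 (5908) and 4 (1275).

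On the median-ratio scale, differences not called turned sign, for causes not tested. With 1 library left out, SEC61G ran from -0.379 to 0.506, SEC63 from -0.116 to 0.016, OST4 from -0.136 to 0.238, EMC4 from -0.382 to 0.153 and SGTA from -0.082 to 0.038; SERP1 as deposited ran from -0.066 to 0.364. With structural RNAs omitted from scaling, a setting in which 0 is not the median gene, SEC63 was 0.071, TRAM1 0.00, EMC4 0.091 and SGTA 0.17. With the length trend removed SPCS1 was 0.064, EMC4 0.216 and SGTA 0.011. With a filter at a mean of 5 TPM EMC4 was 0.069.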
